A study of Mus musculus with 12 samples.

Results

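Germ cell genes are active in the cells that give rise to eggs and sperm and are kept largely silent in other tissues, often with methylated CpG-rich promoters. The 9 genes described here, with measurements in mouse yolk sac, were Ddx4, Rnf17, Prdm14, Asb17, Dazl, Mael, Sycp3, Tdrd1 and Tdrd9. They were taken as a set because Ddx4 was higher, and Rnf17 and Prdm14 lower, in yolk sacs that lack the histone methyltransferase Setd2. The 9 genes had 13 probe sets (4 for Rnf17, 2 for Dazl, 1 for each of the other 7), of 18193 genes with a probe set of their own. Because the set was chosen by the knockout values, those values are given as descriptions with no test. The change between stages, averaged over genotypes, took no part in the choice and was tested.

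RNA came from 4 groups of yolk sacs on a mixed 129Sv/C57BL/6 background: Hypb-/- and Hypb+/+ at E10.5, and Hypb-/- and Hypb+/+ at E9.0, where E counts embryonic days. Hypb is another name of Setd2, which places trimethylation on lysine 36 of histone H3, a mark laid down over transcribed gene bodies. The Hypb-/- groups are called knockout and the Hypb+/+ groups wild type, and the deleted part of the gene is not given in the sources used here, so whether the Setd2 probe set lies inside it is not known. Per the labels, knockout embryos showed no severe defect at E9.0 and were close to death at E10.5. Each group had 3 arrays, and each array was hybridised with a pool of RNA from 4 yolk sacs. A pool mixes all cell types of the tissue, so fewer cells of a type and less RNA per cell cannot be told apart.

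The yolk sac is a membrane outside the embryo that takes up nutrients and forms early red blood cells, and it is also where primordial germ cells pass close by on their way to the gonads. Several of the 9 genes act with piRNAs, small RNAs with which germ cells silence transposons. Ddx4 is an RNA helicase of germ granules, Rnf17, Tdrd1 and Tdrd9 are Tudor-domain proteins, and Mael acts in the same pathway. Dazl binds mRNAs in germ cells, Sycp3 is a structural protein of meiotic chromosomes, and Prdm14 is a transcription regulator needed to form primordial germ cells. Asb17 belongs to the family of proteins with ankyrin repeats and a SOCS box and is known mainly from testis.

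Values are log2 intensities, on which a difference of 1 is a doubling. Across the 12 arrays values ran between 2.03 and 14.49, array medians between 5.26 and 5.34, and Spearman correlations between arrays between 0.973 and 0.994. Probe sets of 6 of the 9 genes had a mean below 5.3, the median probe set, a range in which log2 differences are compressed, and the values carry no detection calls. Setd2 itself read 7.77, 7.81 and 8.07 in E10.5 knockout yolk sacs, against 8.77, 8.70 and 8.66 in E10.5 wild type, a difference of -0.83 (SE 0.14, limma adjusted p 0.0063). It read 7.54, 7.99 and 7.53 in E9.0 knockout yolk sacs, against 9.08, 9.03 and 8.83 in E9.0 wild type (-1.29, SE 0.14, adjusted p 0.00331). The E10.5 difference was -0.95 within replicates 1 and 2 and -0.59 within replicate 3. The arrays with replicate number 3 had control readings apart from the others of their stage. At E10.5 the 3′ minus 5′ reading of the dap control was 1.65 in the knockout array and 1.63 in the wild type array, while the remaining E10.5 arrays read 0.87 to 1.18. The same dap reading at E9.0 was 1.23 in the knockout array and 1.37 in the wild type array, while the remaining E9.0 arrays read 0.92 to 1.06. At E9.0 the BioC minus BioB hybridisation controls differed by 0.15 in the knockout array and 0.24 in the wild type array, while the remaining E9.0 arrays read 1.70 to 1.86. This split is not in the labels. At an adjusted p under 0.05, limma called 3.64% of all probe sets in knockout at E10.5 and 0.406% at E9.0 (183 probe sets, and 322 with the replicate number as a block). Several differences are given also within replicates 1 and 2 and within replicate 3.

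Visceral endoderm markers were high on the arrays (Afp 14.17 in E10.5 knockout and 14.16 in E10.5 wild type, Ttr 14.12 and 14.15), and none of the 9 measured of that list was called at either stage. At E10.5 that list's median difference was -0.18, and 3 of the 9 had an unadjusted limma p under 0.05 (19.6% of all genes had one). Its summed log2 level was 16.38 to 16.47 in E10.5 knockout arrays against 16.51 to 16.57 in wild type. Genes of other marker lists were called in knockout at E10.5. In the embryonic heart list 2 of 7 genes rose, Myl7 by 3.21 (adjusted p 0.01) and Tnnt2 by 1.92 (adjusted p 0.0145), and the list's summed log2 level was 9.46 to 11.14 in E10.5 knockout arrays against 8.59 to 8.88 in wild type. In the embryonic neural list 1 of 8 rose, Sox11 by 2.47 (adjusted p 0.0401), with a summed level of 9.09 to 9.57 in knockout against 8.27 to 8.66 in wild type. In the macrophage list 3 of 6 genes were called at E10.5: Cx3cr1 rose by 0.65 (adjusted p 0.0132), Csf1r rose by 0.79 (adjusted p 0.0329), and Fcgr3 differed by -1.82 (adjusted p 0.000587). The macrophage summed level was 10.61 to 10.76 in E10.5 knockout arrays against 11.02 to 11.30 in wild type. That sum weighs bright genes most, and Fcgr3 was the brightest of the list in E10.5 wild type (10.54). The list's median difference at E10.5 was 0.37, and its uncalled genes Tyrobp, Cd68 and Ptprc differed by 0.48, 0.25 and 0.12. In the mesothelium and mesenchyme list 2 of 8 rose, Vim by 0.76 (adjusted p 0.00679) and Acta2 by 0.76 (adjusted p 0.015), with a summed level of 14.50 to 14.92 in knockout against 14.31 to 14.50 in wild type. In the endothelium list 0 of 8 genes were called at E10.5, and the median difference was 0.39. Of the 8, 4 had an unadjusted limma p under 0.05 (19.6% of all genes had one). The endothelium summed level was 10.68 to 11.08 in E10.5 knockout arrays against 10.32 to 10.65 in wild type. At E9.0 Cd68 of the macrophage list rose by 0.65 (adjusted p 0.0341), and the heart and neural lists had no called gene. The macrophage list's median difference at E9.0 was -0.22. Ptprc (-0.97, limma adjusted p 0.0979), Fcgr3 (-0.88, 0.0901) and Tyrobp (-0.61, 0.0794) read lower with no overlap and were not called. Csf1r (0.43) and Cx3cr1 (0.17) read higher with overlapping arrays. The summed heart level at E9.0 was 7.97 to 8.72 in knockout and 8.17 to 9.64 in wild type. The part of these tissues and cells in the values below was not tested.

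The promoter windows of the set are shown because some germ cell genes carry E-box and E2F-type motifs near their start. The capitals mark CACGTG, a palindromic E-box, or GCGGGAA, an E2F-type motif, searched on both strands; the motifs were chosen after the sequences had been seen and no match overlaps a match of the other motif. Each window runs from 250 bases before to 50 bases after the transcription start, 5′ to 3′ on the gene's strand, from RefSeq on GRCm38.p6, which had an entry for 7 of the 9 genes, not for Rnf17 and Prdm14. For Tdrd1, window 1 of 3 is shown and counted. Its window 2 also held CACGTG, and its window 3 held 3 CpGs and neither motif. The Dazl window, with 28 CpGs and neither motif, is counted but not printed. Ddx4 (chr13:112652261-112652560, minus strand), Asb17 (chr3:153843997-153844296, plus), Mael (chr1:166238695-166238994, minus), Sycp3 (chr10:88459337-88459636, plus), Tdrd1 (chr19:56825959-56826258, plus) and Tdrd9 (chr12:111971309-111971608, plus) follow.
Ddx4: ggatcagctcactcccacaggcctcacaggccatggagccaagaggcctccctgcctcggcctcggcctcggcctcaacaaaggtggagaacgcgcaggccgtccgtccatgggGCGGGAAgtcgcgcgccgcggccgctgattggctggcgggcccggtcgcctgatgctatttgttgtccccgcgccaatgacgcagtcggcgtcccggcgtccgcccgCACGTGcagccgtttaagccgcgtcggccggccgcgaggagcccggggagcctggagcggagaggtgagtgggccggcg
Asb17: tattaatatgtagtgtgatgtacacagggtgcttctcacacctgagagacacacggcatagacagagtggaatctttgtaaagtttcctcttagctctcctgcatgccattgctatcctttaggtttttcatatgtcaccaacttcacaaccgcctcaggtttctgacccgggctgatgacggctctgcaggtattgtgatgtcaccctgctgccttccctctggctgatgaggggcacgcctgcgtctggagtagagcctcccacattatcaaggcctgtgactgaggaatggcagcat
Mael: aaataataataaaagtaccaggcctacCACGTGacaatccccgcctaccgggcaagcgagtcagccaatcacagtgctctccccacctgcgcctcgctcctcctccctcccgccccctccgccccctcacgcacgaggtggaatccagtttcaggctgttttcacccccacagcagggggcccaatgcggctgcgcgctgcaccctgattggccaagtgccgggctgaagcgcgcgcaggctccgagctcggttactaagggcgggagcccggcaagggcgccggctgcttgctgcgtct
Sycp3: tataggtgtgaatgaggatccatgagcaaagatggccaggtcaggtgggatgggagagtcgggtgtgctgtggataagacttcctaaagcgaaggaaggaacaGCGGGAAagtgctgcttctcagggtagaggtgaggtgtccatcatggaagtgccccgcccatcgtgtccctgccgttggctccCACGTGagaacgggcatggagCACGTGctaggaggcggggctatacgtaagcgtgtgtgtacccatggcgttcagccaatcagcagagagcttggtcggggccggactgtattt
Tdrd1: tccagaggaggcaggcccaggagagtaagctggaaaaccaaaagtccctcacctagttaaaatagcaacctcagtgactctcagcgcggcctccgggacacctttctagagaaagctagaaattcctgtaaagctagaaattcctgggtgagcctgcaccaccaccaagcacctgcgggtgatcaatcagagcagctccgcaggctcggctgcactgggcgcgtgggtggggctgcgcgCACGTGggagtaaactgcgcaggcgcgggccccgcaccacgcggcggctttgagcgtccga
Tdrd9: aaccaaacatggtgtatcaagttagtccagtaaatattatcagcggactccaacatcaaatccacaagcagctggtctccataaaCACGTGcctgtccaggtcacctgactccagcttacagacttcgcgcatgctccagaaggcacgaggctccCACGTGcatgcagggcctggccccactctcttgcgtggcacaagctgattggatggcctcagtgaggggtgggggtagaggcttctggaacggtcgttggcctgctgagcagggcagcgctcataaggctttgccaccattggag

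Of the 7 windows, 5 held CACGTG (71.4%), those of Ddx4, Mael, Sycp3, Tdrd1 and Tdrd9, against 1957 of 27025 first windows of all genes in the table (7.24%). GCGGGAA was in 2 of the 7 (28.6%), Ddx4 and Sycp3, against 4.66% of all windows. The Ddx4 window held 38 CpGs, a count reached by 4.78% of all windows, whereas Asb17 held 6. The windows of Dazl and Asb17 held neither motif, and these counts describe only the letters of these windows. In 98 windows of other germ cell genes, 18 held CACGTG (18.4%) and 13 held GCGGGAA (13.3%). In 20 windows of genes that repress germ cell genes, 2 held CACGTG and 3 held GCGGGAA. Both motifs contain a CpG. The median CpG count was 20 in the 7 member windows and 7 in all windows. It was 14 in the windows of other germ cell genes and 28.5 in those of the repressors. Whether the motif shares exceed those of windows with like CpG counts was not tested.

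**Figure D1:**
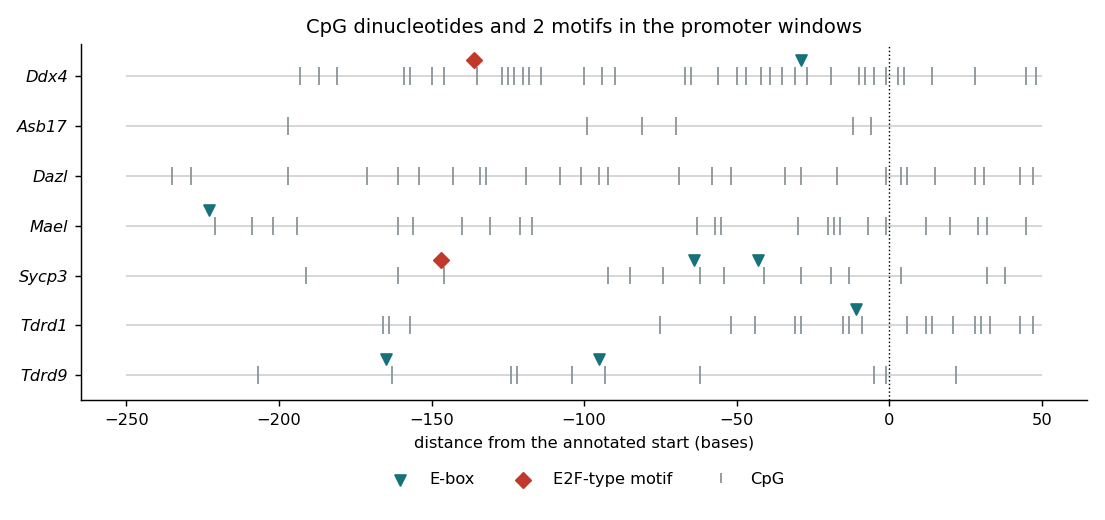
Positions of CpGs and of the motifs CACGTG and GCGGGAA in the promoter windows of the 7 genes with an entry, as distance in bases from the transcription start (x axis), 1 row a window. Ddx4 holds 38 CpGs and Asb17 holds 6.

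Ddx4 was higher in knockout yolk sacs at both stages. It read 7.23, 7.10 and 7.38 in E10.5 knockout arrays, against 6.40, 6.27 and 5.81 in E10.5 wild type, and the groups did not overlap. The difference was 1.08 (SE 0.15), 2.11-fold. At E9.0 it read 7.40, 7.10 and 7.35 in knockout, against 6.04, 6.00 and 5.77 in wild type, a difference of 1.35 (SE 0.15), 2.54-fold, again with no overlap. Of all probe sets, 2.1% were higher at both stages without overlap. The level in knockout was alike at both stages, 7.24 ± 0.140 at E10.5 and 7.28 ± 0.161 at E9.0 (SD, n = 3 each). The E10.5 difference was 0.83 within replicates 1 and 2 and 1.57 within replicate 3, the lowest wild type array being number 3.

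Rnf17 was lower in knockout yolk sacs at both stages. Its brightest probe set read 4.31, 3.87 and 3.80 in E10.5 knockout arrays, against 6.32, 5.67 and 5.83 in E10.5 wild type, a difference of -1.95 (SE 0.20), 3.85-fold lower. At E9.0 it read 5.04, 5.08 and 4.54 in knockout, against 6.35, 6.63 and 6.74 in wild type, a difference of -1.69 (SE 0.20), 3.22-fold lower. No array overlapped at either stage, as for 2.54% of all probe sets that were lower at both. The E9.0 difference was -1.43 within replicates 1 and 2 and -2.20 within replicate 3. The other 3 probe sets of Rnf17 were lower too, by smaller amounts: by -0.61 at E10.5 and -0.51 at E9.0, where the arrays overlapped, in one, by -0.60 and -1.08 in another, and by -1.05 and -0.64 in the last. Correlations between pairs of the 4 probe sets over the 12 arrays lay between 0.72 and 0.91, as a description.

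Prdm14 was lower in knockout at E10.5 and slightly higher at E9.0. It read 4.41, 4.81 and 4.67 in E10.5 knockout arrays, against 6.61, 6.41 and 6.56 in E10.5 wild type, a difference of -1.90 (SE 0.11), 3.72-fold lower. At E9.0 it read 3.88, 3.70 and 3.78 in knockout, against 3.67, 3.49 and 3.52 in wild type, a difference of 0.23 (SE 0.11), with no overlap between the groups. These E9.0 values are low, below the median probe set mean of 5.3, and carry no detection calls. Of all probe sets, 0.246% were higher at E9.0 and lower at E10.5 with no overlap at either stage. Wild type yolk sacs were 2.97 higher at E10.5 than at E9.0, and knockout yolk sacs 0.84 higher.

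Asb17 was lower in knockout at E10.5 with a wide spread. It read 3.74, 5.76 and 4.52 in E10.5 knockout arrays, against 6.75, 6.91 and 6.59 in E10.5 wild type, a difference of -2.08 (SE 0.37), 4.22-fold lower. The groups did not overlap, and the SD was 1.02 in knockout against 0.160 in wild type. Leaving out 1 array at a time moved the difference between -2.62 and -1.61. At E9.0 the groups overlapped: 5.53, 5.86 and 6.01 in knockout, against 6.35, 5.85 and 6.08 in wild type. Epb42, a red cell membrane protein, also had its lowest value on the first E10.5 knockout array, with 5.34, 6.98 and 6.35 in knockout against 7.44, 7.31 and 7.67 in wild type (-1.25, adjusted p 0.0549). The erythroid list's summed level was 15.55, 15.79 and 15.67 in E10.5 knockout arrays against 15.84 in each wild type array, and its part in the Asb17 value was not tested.

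**Figure D2:**
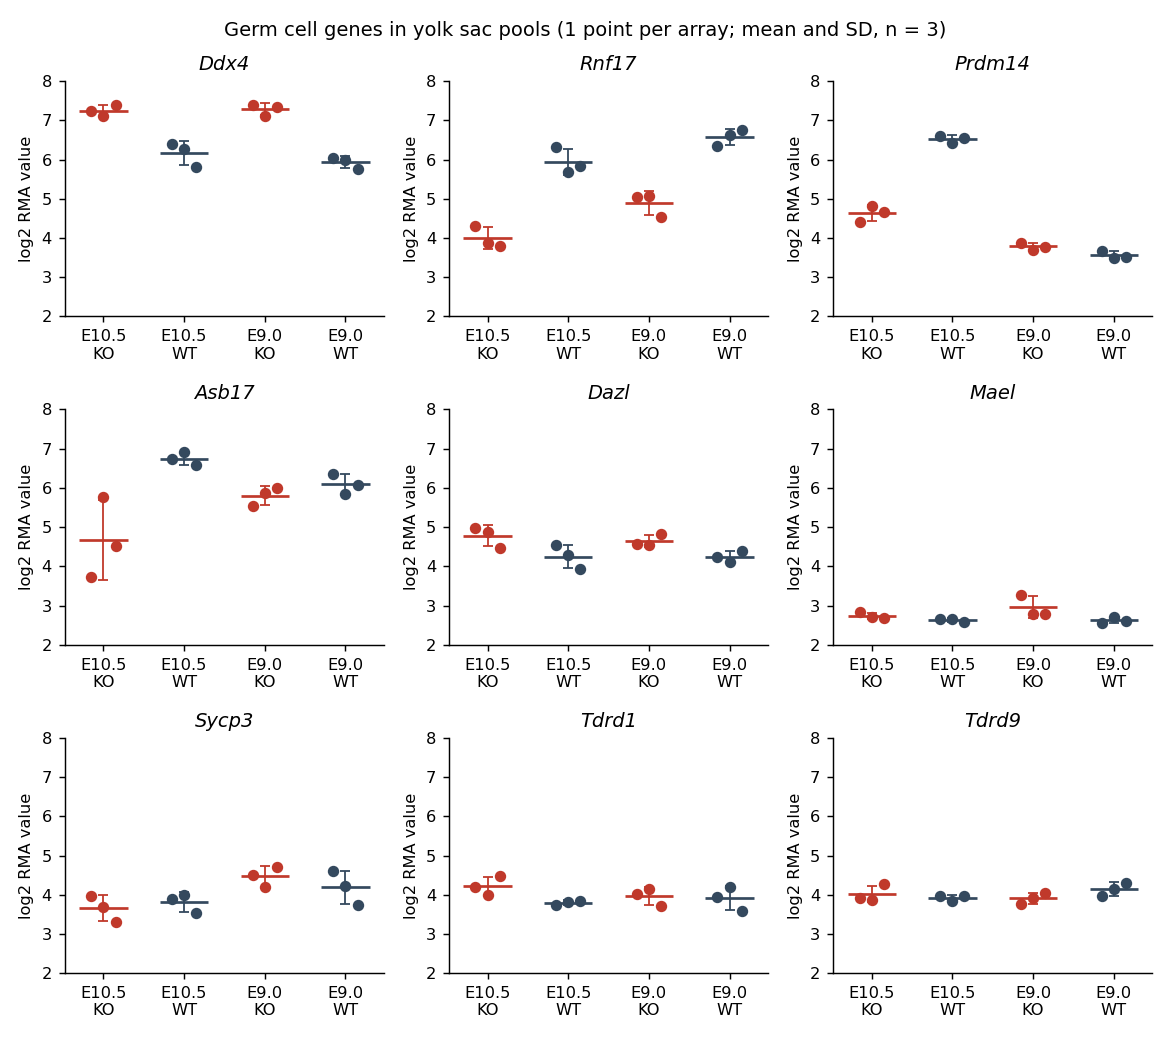
Log2 intensity (y axis) of the 9 genes, each by its brightest probe set, on the 12 arrays by group (x axis), 1 point an array, with the mean and SD of each group of 3. Ddx4 lies at 7.10 to 7.40 in knockout and 5.77 to 6.40 in wild type, and Prdm14 reaches 6.41 to 6.61 in E10.5 wild type alone.

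The other 5 genes had array values between 2.57 and 4.99 and knockout differences of at most 0.53 in size. The brighter probe set of Dazl read 4.99, 4.89 and 4.48 in E10.5 knockout, against 4.54, 4.28 and 3.94 in wild type, so the arrays overlapped, and 4.57, 4.55 and 4.83 in E9.0 knockout, against 4.23, 4.11 and 4.40 in wild type, where they did not. Its other probe set overlapped at both stages, with an E9.0 difference of 0.14 that was -0.07 within replicates 1 and 2 and 0.57 within replicate 3, and correlated with the first at 0.39 over the 12 arrays. Mael read 2.83, 2.70 and 2.69 in E10.5 knockout, against 2.65, 2.67 and 2.58 in wild type (0.11, SE 0.13), and 3.28, 2.80 and 2.80 in E9.0 knockout, against 2.57, 2.72 and 2.61 in wild type (0.33). The arrays did not overlap at either stage, and the E9.0 difference was 0.17 without the first knockout array. Tdrd1 read 4.21, 3.99 and 4.47 in E10.5 knockout, against 3.74, 3.83 and 3.84 in wild type (0.42, SE 0.17), and overlapped at E9.0. Sycp3 overlapped at both stages, with 3.98, 3.70 and 3.31 in E10.5 knockout, against 3.90, 4.01 and 3.54 in wild type, and 4.50, 4.19 and 4.72 in E9.0 knockout, against 4.60, 4.23 and 3.74 in wild type. Its E9.0 difference of 0.28 was -0.07 within replicates 1 and 2 and 0.98 within replicate 3. Tdrd9 also overlapped at both stages, with differences of 0.10 at E10.5 and -0.24 at E9.0.

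Counted over the set, 3 of the 9 genes were higher and 3 lower without overlap at E10.5, where 9.02% of all probe sets were higher and 9.81% lower in this way. At E9.0 4 were higher and 1 lower, against 7.14% and 8.19%. These counts repeat values that chose the set and nothing is read from them. The set's median difference was 0.10 at E10.5 and 0.23 at E9.0, beside -0.007 and 0.0 over all probe sets.

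**Figure D3:**
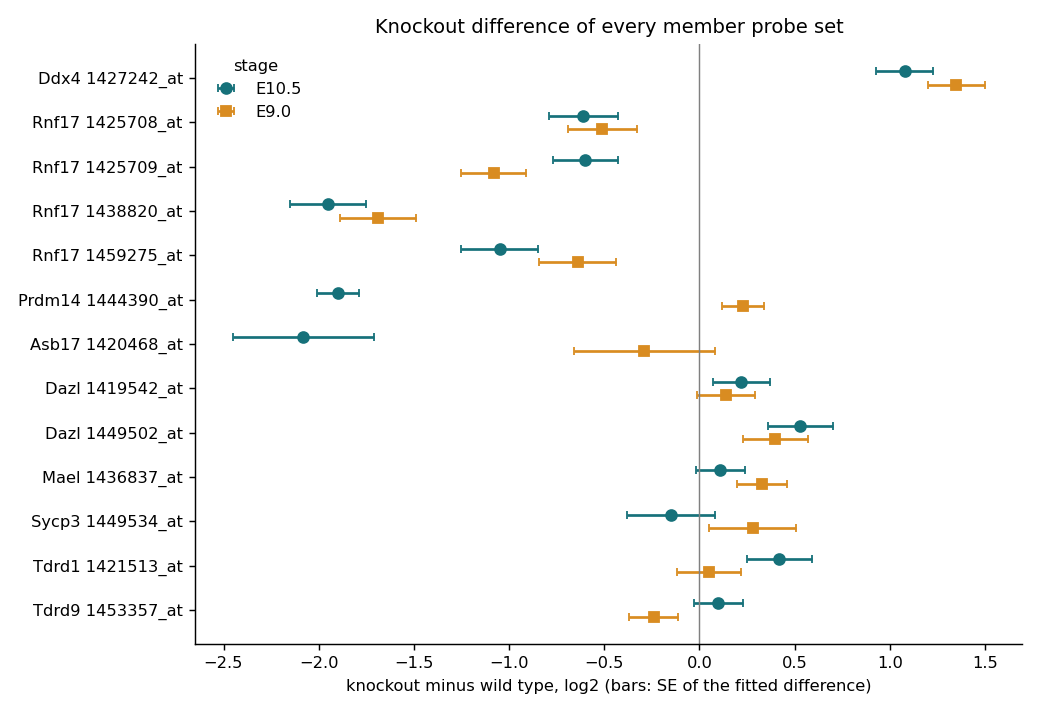
Knockout minus wild type difference of log2 intensity (x axis) with its SE for each probe set at E10.5 and at E9.0. Ddx4 stands at 1.08 and 1.35, Rnf17 at -1.95 and -1.69, and Prdm14 at -1.90 and 0.23.

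Between stages, averaged over genotypes, Prdm14 rose and Rnf17 and Sycp3 fell. Prdm14 averaged 5.58 at E10.5 and 3.67 at E9.0 (1.91, SE 0.08, limma adjusted p 1.12e-07), and no E10.5 array lay below an E9.0 array, as for 6.47% of all probe sets. Rnf17 averaged 4.97 at E10.5 and 5.73 at E9.0 (-0.76, SE 0.14, adjusted p 0.00194), with overlapping arrays. Sycp3 averaged 3.74 at E10.5 and 4.33 at E9.0 (-0.59, SE 0.16, adjusted p 0.0182). That is 3 of 9 genes, each by its brightest probe set, where 32.9% of all genes were called in the same way, a share in the set near the background. Of all probe sets, 26.3% were called (13.2% higher, 13.1% lower). Ddx4 averaged 6.70 at E10.5 and 6.61 at E9.0 (0.09, SE 0.11, adjusted p 0.624). Dazl differed by 0.07 (adjusted p 0.731), Mael by -0.11 (0.423), Tdrd1 by 0.07 (0.734) and Tdrd9 by -0.05 (0.748). With only arrays 1 and 2, Dazl differed by 0.31 and was called. Of the other Rnf17 probe sets, 1 of 3 was called, at -0.42 (adjusted p 0.0198), a call lost without the second E9.0 wild type array (-0.35, adjusted p 0.0515). Another differed by -0.34 (adjusted p 0.0702) and was called without the third E9.0 knockout array (-0.42, adjusted p 0.0229) and with a batch term for replicate 3 (adjusted p 0.0496). The last differed by -0.02 (adjusted p 0.954). Asb17 differed by -0.23 (SE 0.26, adjusted p 0.584), and by -0.51 (adjusted p 0.0356) without the second E10.5 knockout array.

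Other germ cell genes came from 5 lists drawn up by known function, with earlier results of these data known, and few were called. Of 121 measured genes, 2 rose and 6 fell in knockout at E10.5 (6.61%), where 5.18% of all genes were called, and the median difference was 0.00. At E9.0 limma called 0 of them, with 13 at an unadjusted p under 0.05 (11.3% of all genes had one), where 0.539% of all genes were called; with the replicate number as a block 2 were called, Elavl2 (0.86, adjusted p 0.0481) and Zar1 (0.68, adjusted p 0.0413), both RNA-binding protein genes. No primordial germ cell or pluripotency gene of 21 was called at E10.5: Pou5f1 averaged 4.04 in knockout and 4.00 in wild type, Nanog 2.95 and 2.75, Dppa3 3.94 and 3.90. The list's median difference was 0.22, and 6 of the 21 had an unadjusted p under 0.05 at E10.5 (19.6% of all genes had one). Of these, Sox17, a transcription factor of endoderm and endothelium as well as germ cells, differed by 1.04 (SE 0.31, adjusted p 0.103) and Kit, a receptor also present on blood progenitors, by 0.94 (SE 0.35, adjusted p 0.198), both with no overlap. Alpl, a phosphatase, differed by -0.74 (adjusted p 0.0936), and Sox2, Sall4 and Dnd1 by 0.75, 0.28 and 0.27. The list's summed level was 11.94 to 12.23 in E10.5 knockout arrays and 11.94 to 11.98 in wild type.

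Among the piRNA and Tudor-domain genes, 1 of 17 was called at E10.5. Piwil2, an Argonaute-family protein that binds piRNAs, read 3.53, 3.71 and 3.44 in knockout, against 4.20, 4.79 and 4.40 in wild type (-0.90, SE 0.15, adjusted p 0.00701). Of 28 spermatid genes Slc25a31, a mitochondrial ADP/ATP carrier of germ cells, fell: 5.39, 5.80 and 5.69 in knockout, against 6.85, 7.07 and 6.70 in wild type (-1.25, SE 0.22, adjusted p 0.00886). None of 27 genes for germ cell RNA-binding proteins and transcription factors was called.

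Of 28 meiosis genes, 6 were called at E10.5 (21.4%, where 5.18% of all genes were called), and the list's median difference was -0.05. Stag3, a cohesin subunit of meiosis, read 4.30, 4.34 and 4.49 in knockout, against 5.28, 5.09 and 5.21 in wild type (-0.82, SE 0.10, adjusted p 0.00112). Hsf2bp, known for its role in meiotic recombination, read 5.03, 5.30 and 5.41 in knockout, against 6.12, 6.51 and 6.09 in wild type (-0.99, adjusted p 0.00583). The synaptonemal complex genes Syce2 (-0.86, adjusted p 0.0106) and Syce1 (-0.60, adjusted p 0.0363) fell, from unlike levels. Syce2 was bright, averaging 9.45 in E10.5 knockout and 10.31 in wild type, and Syce1 was dim, averaging 3.64 and 4.24. Msh4, of the mismatch repair family, rose by 0.96 (adjusted p 0.012) and Mei4, needed for meiotic DNA breaks, by 0.76 (adjusted p 0.0197). Stag3, Hsf2bp, Piwil2 and Slc25a31 kept their calls without any 1 array, and the other 4 each lost theirs without at least 1: Syce1 without any 1 E10.5 array (adjusted p 0.054 to 0.138), Syce2 without wild type array 2 (0.0537), Msh4 without wild type array 1 (0.0529), and Mei4 without knockout array 1, wild type array 1 or wild type array 2 (0.072 to 0.0839). Syce2 (adjusted p 0.0671) and Msh4 (adjusted p 0.0614) also lost theirs when only the E10.5 arrays were fitted. None of the 8 was called at E9.0, and no list gene passed the test of the difference between the knockout changes at the 2 stages, which 0.0533% of all probe sets passed.

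**Figure D4:**
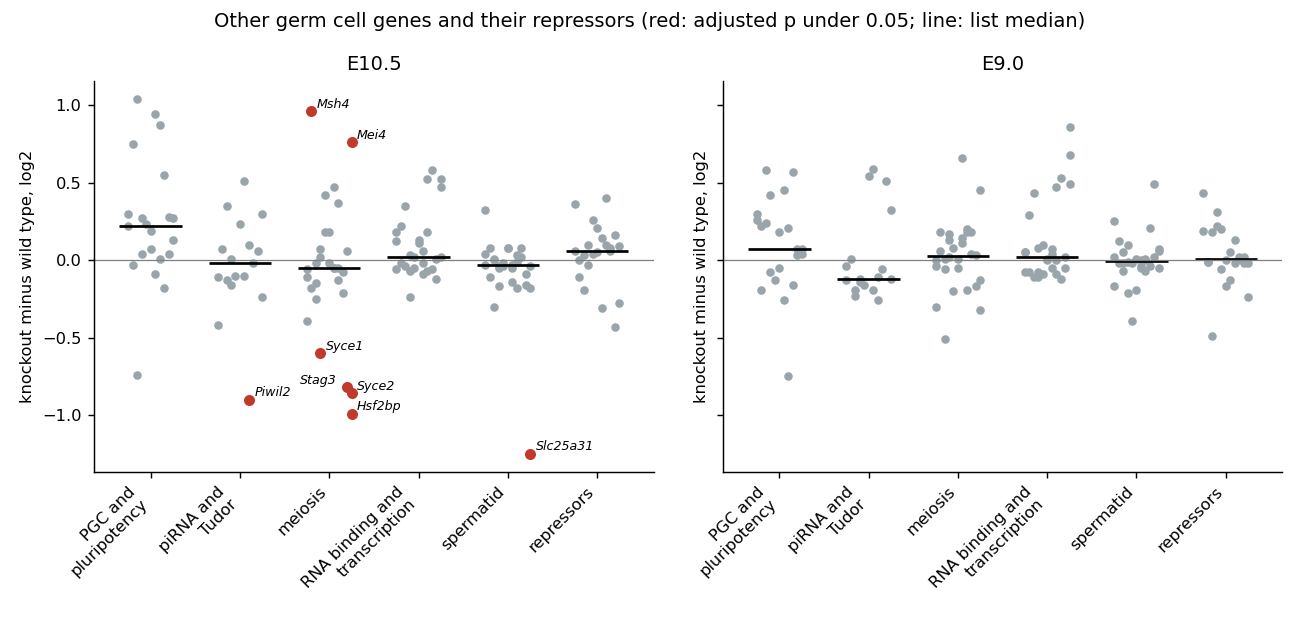
Knockout minus wild type difference of log2 intensity (y axis) for each measured gene of the 5 germ cell lists and the repressor list (x axis) at E10.5 and E9.0, 1 point a gene, with called genes in red and a line at each list's median. At E10.5 2 genes rose and 6 fell, and at E9.0 limma called 0, with 13 at an unadjusted p under 0.05.

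Of 22 measured genes that repress germ cell genes, 0 were called at either stage by limma, with 4 at E10.5 and 3 at E9.0 at an unadjusted p under 0.05 (19.6% and 11.3% of all genes), and medians of 0.06 and 0.01. Those at E10.5 were E2f6 (0.36, adjusted p 0.0963), Hdac2 (0.26, 0.241), Dnmt3a (-0.43, 0.0688) and Pcgf6 (-0.31, 0.099). Those at E9.0 were E2f6 (0.43, adjusted p 0.122), Wdr5 (0.19, 0.526) and Ring1 (-0.49, 0.133). The repressor list's summed level was 14.16 to 14.22 in E10.5 knockout arrays against 14.06 to 14.15 in wild type. At E9.0 it was 14.37 to 14.40 against 14.32 to 14.35. Between stages 29 of the 121 germ cell genes were called (24.0%), 20 higher and 9 lower, where 32.9% of all genes were called. In the primordial germ cell and pluripotency list 7 of 21 genes were called (33.3%), 2 higher and 5 lower. Among those lower were the pluripotency regulators Sall4 (-1.23, adjusted p 2.54e-06) and Dppa2 (-1.48, adjusted p 6.28e-05) and the RNA-binding protein Lin28a (-0.95). That list's summed level was 11.94 to 12.23 at E10.5 and 12.54 to 12.90 at E9.0 in knockout arrays. In the meiosis list 10 of 28 genes were called (35.7%), 10 higher and 0 lower, among them Hsf2bp (0.74) and Rec8 (0.59), a meiotic cohesin subunit. Both list shares lie near that of all genes. Hsf2bp was 1.17 higher at E10.5 than at E9.0 in wild type and 0.31 higher in knockout.

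The genes whose pattern over the 12 arrays was most like that of a member, among 4705 genes with an SD of at least 0.3, were found by Pearson's r, given without a p. For Ddx4 they were Snap91 (0.956), Papss2 (0.952), Fam174b (0.941) and Rps4l (0.93). For Rnf17 they were Zfp850 (0.968), Mpzl2 (0.964), Pcdh17 (0.96) and Tnk1 (0.919). For Prdm14 they were Alb (0.988), Rida (0.968), Plekhd1 (0.966) and Fuom (0.965), and for Asb17 9230102K24Rik (0.897), Dnah8 (0.89), Epb42 (0.888) and Rhag (0.885). Alb, serum albumin, differed by -2.22 at E10.5 and 0.06 at E9.0, and Snap91 by 1.15 and 1.13. These arrays share stage and genotype, which moves many genes together.

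**Figure D5:**
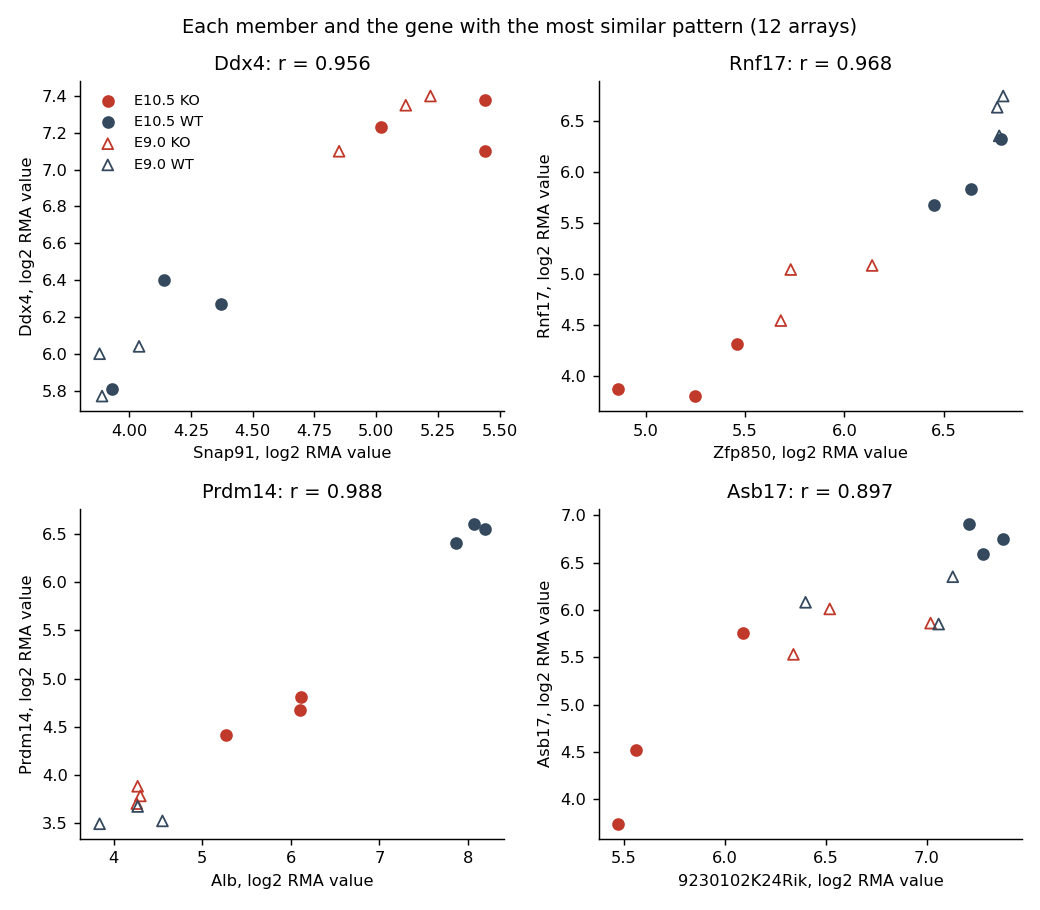
Log2 intensity of Ddx4, Rnf17, Prdm14 and Asb17 (y axis of each panel) against that of the gene most like each (x axis), 1 point an array, coloured by genotype and shaped by stage. Pearson's r was 0.956 for Ddx4 with Snap91 and 0.988 for Prdm14 with Alb.

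The nearest measured coding genes, 2 on each side of Ddx4, Rnf17, Prdm14 and Asb17 by the order of GRCm38.p6, were mostly not called. Of these 16, 1 was called in a knockout comparison, Msh4, whose start or end lay 3.53 kb from Asb17 and which rose at E10.5 while Asb17 read lower. Of all genes, 5.18% were called at E10.5 and 0.539% at E9.0. Next to Ddx4, Slc38a9 differed by -0.47 (adjusted p 0.0595) and Il31ra by 0.20 (adjusted p 0.678) at E10.5. Next to Rnf17, Cenpj differed by 0.14 (adjusted p 0.696) and Atp12a by -0.01 (adjusted p 0.981). Next to Prdm14, Ncoa2 differed by -0.04 (adjusted p 0.954) and Slco5a1 by -0.12 (adjusted p 0.701), and farther off Sulf1 by 1.03 (adjusted p 0.0564).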

How the data were processed

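Yolk sac RNA was hybridised to 12 Affymetrix mouse expression arrays, 3 for each of 4 groups. The deposited values are log2 intensities made by the authors with RMA, per the submitters' processing notes (version not given in the sources used here). Of 45101 probe sets, 64 controls were left out and 45037 tested: 34945 had 1 gene symbol, 932 several and 9160 none. The brightest probe set stood for each of 18193 genes. R 4.3.3 with limma 3.58.1 fitted 1 mean per group to all arrays (lmFit, eBayes, two-sided, 8 residual degrees of freedom, Benjamini-Hochberg over all probe sets, threshold 0.05), after a check on simulated data. The median SE was 0.132 between 2 groups. No depth applies to arrays, whose number limits the precision.

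The members and gene lists were chosen with earlier results of these data known. Named genes were all probe sets of the members, Setd2, up to 6 called genes a list, and the 4 genes most like each of 4 members. Pools of yolk sacs were the replicates, and the p-values measure the spread between pools. Deviations of same-numbered knockout and wild type arrays correlated positively at E9.0 (r 0.101, 0.266, 0.282) and at E10.5 (r 0.283, 0.092, 0.437). Differently numbered pairs lay between -0.381 and 0.248 at E9.0 and between -0.392 and 0.215 at E10.5. The reported fit has no block. Counts of calls with the replicate number as a block are given for both stages in the closing section, and for E9.0 also beside the main counts. Alternatives were 23 other settings.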

Additional observations from a re-analysis of the deposited data

Results flagged for a closer look

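Prdm14 differed between knockout and wild type in opposite directions at the 2 stages, with every array of a group on 1 side of the other group: -1.90 at E10.5 and 0.23 at E9.0, on the log2 scale. The difference between the knockout changes was -2.12. Since Prdm14 was chosen by these values, the difference was not tested. The E9.0 side (SE 0.11) rests on low values of 3.49 to 3.88, which carry no detection calls.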

How the results depend on the processing

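The number of called probe sets moved with the fit. At E9.0 it was 183, and 322 with the replicate block, 482 with a batch term for replicate 3, 51 with only arrays 1 and 2, and 39 with only the E9.0 arrays; leaving out 1 replicate gave 38 to 180. At E10.5 it was 1640, and 2483 with the replicate block, 3097 with the batch term, 2860 with only arrays 1 and 2 and 700 with only the E10.5 arrays; leaving out 1 replicate gave 757 to 2700. Between stages it was 11834, and 6484 with 1 probe set a gene, which tests fewer features. Of the germ cell list genes at E9.0, 0 were called, but 2 with the replicate block, 3 with the batch term and 2 with 1 probe set a gene, and 0 to 2 when leaving out 1 replicate. At E10.5, 8 were called, but 12 with the replicate block, 11 with the batch term, 10 with only arrays 1 and 2 and 10 with 1 probe set a gene. The E10.5 count was 6 with only the E10.5 arrays, 3 of the 36 above the median probe set and 5 to 8 when leaving out 1 replicate. Of the members, 3 changed between stages, 4 with only arrays 1 and 2, and 3 to 4 when leaving out 1 replicate. Among those above the median probe set it was 1, a filter that leaves out the dim members. The stage change reversed for 1 probe set of Rnf17 (-0.02; -0.13 to 0.08 when leaving out 1 replicate) to 0.08 without E9.0 knockout 2, 0.02 without E9.0 wild type 2, 0.08 without E10.5 wild type 3 and 0.02 with only arrays 1 and 2, and for Tdrd1 (0.07; -0.01 to 0.14 when leaving out 1 replicate) to -0.01 without E9.0 wild type 3 and -0.14 with only arrays 1 and 2. With only arrays 1 and 2, Ddx4 differed by 0.83 at E10.5, and at E9.0 Sycp3 (0.28 over all arrays) and the dimmer Dazl probe set (0.14) by -0.07 each; Mael at E9.0 (0.33) differed by 0.17 without knockout 1. The cause was not tested. For single genes and probe sets, apart from the counts above and Setd2, 14 values under the alternatives gained a call and 14 lost one. Another 6, all stage changes, reversed, and 4 without a test moved by more than the spread between replicates. The remaining 744 were classed as unchanged, but that class includes small knockout differences of members that changed sign. When leaving out 1 replicate, Tdrd1 at E9.0 (0.05) ran from -0.1 to 0.2. Tdrd9 at E10.5 (0.10) ran from -0.02 to 0.17, and Sycp3 at E10.5 (-0.15) from -0.31 to 0.02.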
